A study of Drosophila melanogaster with 2 samples.

Results

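Transfer RNA genes were examined in a chromatin immunoprecipitation experiment on whole fruit fly (Drosophila melanogaster) embryos, in which the chromatin protein ADD1 (gene CG8290) carried a green fluorescent protein (GFP) tag. The members were all nuclear genes of biotype tRNA in the Ensembl gene models of the BDGP6 (dm6) assembly, and there were 290 of them among 18164 genes on the arms of chromosomes 2, 3, 4 and X, of which 13945 were protein-coding. Another 22 tRNA genes, on the mitochondrial genome, were left out. The series has 1 group, ADD1-GFP ChIP, with 2 biological replicates, numbered 2 and 3. Both came from mixed-sex embryos aged 0 to 14 hours of a transgenic line that stably expresses the C-terminal fusion, with chromatin sonicated to between 200 and 800 bp. The labels name CG8290 as the antibody target and the assay as transcription factor ChIP, while their free-text description calls both samples input controls. No control sample was analysed here, so signal common to all chromatin preparations was not taken away here. Whether the deposited lists already allow for a control is not stated. Embryos of this age span hold many cell types, and the lists cannot tell in which of them a region was bound.

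Transfer RNAs carry amino acids to the ribosome, and an isotype is the set of tRNAs that carry the same amino acid. Their genes are transcribed by RNA polymerase III from promoter elements that lie inside the gene, called the A box and the B box. The factor TFIIIC binds these elements and brings in TFIIIB, which places the polymerase just upstream. In the fly many tRNA genes are identical copies that stand in clusters, often inside or beside protein-coding genes. ADD1 is known in the fly as a protein of heterochromatin, the compact and mostly silent part of the genome.

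The following sequences, from the dm6 reference of RefSeq, belong to members with an optimal region, as defined below. They show the transcribed strand, with the stretch that matched the B box letters GTTCNANNC in capitals. They are shown because 6 of the 11 regions described below lie beside them, and because some exist as exact copies elsewhere in the genome while others do not. tRNA:Asp-GTC-1-4 (2L:8541552-8541623, minus strand) and tRNA:Asp-GTC-1-5 (2L:8541761-8541832, plus strand) have 12 identical copies among the members, themselves included. The 4 genes tRNA:Glu-CTC-3-4 to tRNA:Glu-CTC-3-7 share a sequence of 9 copies.
tRNA:Asp-GTC-1-4: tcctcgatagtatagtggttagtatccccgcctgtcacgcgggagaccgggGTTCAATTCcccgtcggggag
tRNA:Glu-CTC-3-6: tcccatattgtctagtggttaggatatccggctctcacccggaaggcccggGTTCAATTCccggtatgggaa
tRNA:Arg-TCG-2-3: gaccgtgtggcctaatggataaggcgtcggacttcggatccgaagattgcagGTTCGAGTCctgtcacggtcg
tRNA:Tyr-GTA-1-8: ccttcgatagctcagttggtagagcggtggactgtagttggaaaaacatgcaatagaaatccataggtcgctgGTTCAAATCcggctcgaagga
tRNA:Leu-TAA-2-1: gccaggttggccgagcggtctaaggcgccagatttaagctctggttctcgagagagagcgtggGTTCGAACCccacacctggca
tRNA:Gln-TTG-2-1: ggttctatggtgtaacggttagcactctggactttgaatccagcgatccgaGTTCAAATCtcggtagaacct
The Arg-TCG gene has 4 identical copies, and the Tyr-GTA, Leu-TAA and Gln-TTG genes shown have no identical copy. The Arg and Leu genes also matched the stricter B box letters GTTCGANNC, and the other 4 shown did not.

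The members ran from 71 to 186 bp in length, with a median of 73 bp, and fell into 22 isotypes and 44 anticodons. All 290 had the same coordinates in RefSeq and carried their named anticodon between bases 31 and 40. There were 95 distinct gene sequences, with 52 genes of unique sequence and 238 with at least 1 identical copy, up to 13 copies of a sequence. No source used here states how reads that match several copies were aligned. The stricter B box letters were found in 160 genes (55.2%) and the looser letters, chosen after seeing the data, in 271 (93.4%). Arm 2R held the most members, 98, followed by 3R with 79, 3L with 48, 2L with 41 and X with 24, and chromosome 4 held none. A protein-coding gene held 134 of them within its body, and 32 had a protein-coding start within 500 bp of their own.

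A gene was scored as having a summit when the highest point of a deposited region lay within 500 bp of its start. The authors deposited 30000 regions for each replicate and for the pool of both, including weak ones prepared as background for the irreproducible discovery rate (IDR) method, and 2478 optimal regions that passed IDR. Optimal summits lay at 15 of the 290 tRNA genes, or 5.17% (95% exact interval 2.92 to 8.39), against 10.6% of all genes and 12.6% of protein-coding genes. Counting only the outermost start of each gene, the share of all genes was 9.47%. The interval for tRNA genes lay below each of these shares, although neighbouring tRNA genes share summits, so intervals that count genes as separate are too narrow. In the pooled list 147 tRNA genes (50.7%, 44.8 to 56.6) had a summit, against 44.3% of all genes and 49.0% of protein-coding genes. The pooled-list interval lay above the share of all genes and held that of protein-coding genes. At outermost starts only, the pooled shares were 42.1% of all genes and 46.3% of protein-coding genes.

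The replicates differed at tRNA genes, and stood on opposite sides of the level over all genes. In the list of replicate 3, 170 tRNA genes (58.6%, 52.7 to 64.3) had a summit, against 45.8% of all genes. In the list of replicate 2, 87 tRNA genes (30%, 24.8 to 35.6) had one, against 41.2% of all genes. At outermost starts only, the shares of all genes were 43.9% in replicate 3 and 38.9% in replicate 2. Both lists hold 30000 regions. Among the 2478 strongest regions of each replicate, 20 tRNA genes (6.90%, 4.26 to 10.5) had a summit in replicate 3, against 10.5% of all genes. In replicate 2 the strongest regions reached 8 tRNA genes (2.76%, 1.20 to 5.36), against 10.4% of all genes. At this cut the shares of tRNA genes were below those of all genes in both replicates, and the upper bound for replicate 3 met the share of all genes.

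**Figure D1:**
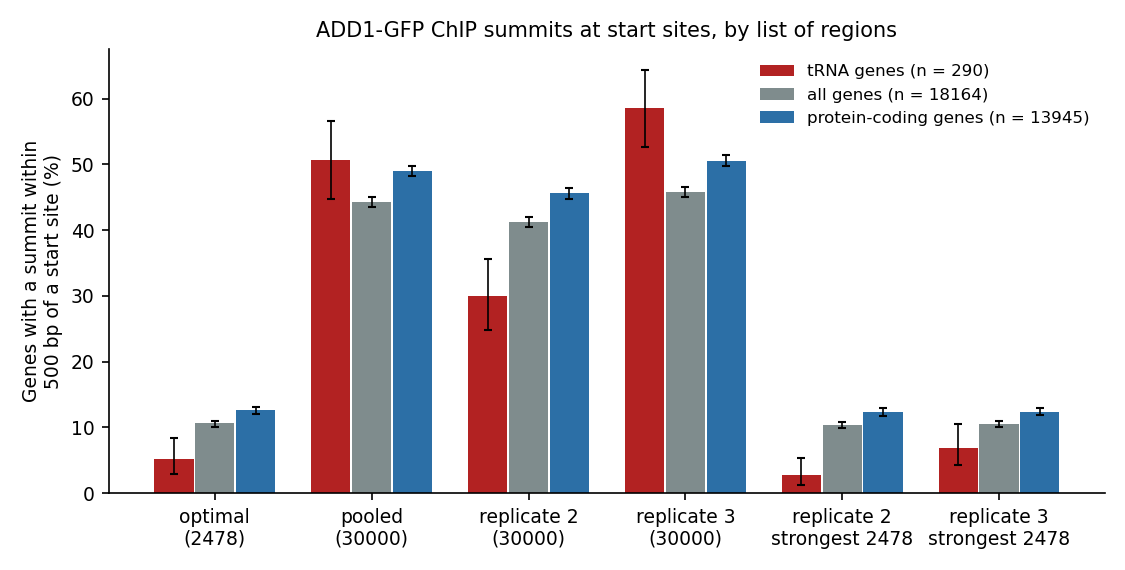
Share of genes (percent, vertical axis) with a summit within 500 bp of a start site in each deposited list and among the 2478 strongest regions of each replicate, for tRNA genes, all genes and protein-coding genes, with 95% exact intervals as error bars. tRNA genes stood at 58.6% in replicate 3 and 30% in replicate 2, while all genes stood at 45.8% and 41.2% in the same lists.

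Other classes of noncoding gene had lower shares in the pooled list. Of 3261 genes of biotype ncRNA, 28.8% had a pooled summit and 4.23% an optimal one. Of 269 snoRNA genes, whose products guide the modification of other RNAs, 21.6% had a pooled summit and 3.35% an optimal one. Of 32 snRNA genes, whose products serve mostly in splicing, 43.8% had a pooled summit (26.4 to 62.3) and 6.25% an optimal one. That pooled interval held the 50.7% of tRNA genes, and the optimal share was above their 5.17%. Annotated pseudogenes had 17.5% and 1.87% in the same lists. The contrast depended on the replicate. In replicate 2 tRNA genes had 30%, against 28.6% of ncRNA, 20.4% of snoRNA and 37.5% of snRNA genes. Replicate 3 gave 58.6% for tRNA genes, against 29.7%, 24.2% and 56.2% for the same classes. These classes differ in how many of their members start beside protein-coding genes, and the part of that in the shares was not tested.

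tRNA summits ranked lower in the lists than those of other genes. Regions were ranked by the authors' signal within each list, rank 1 being the strongest. The median best rank was 12526 over the 147 tRNA genes with a pooled summit (quartiles 5702 and 18398), against 6312 over all genes and 5688 over protein-coding genes. The first 3000 ranks held 11.6% of these tRNA genes, against 28.6% of all genes with a pooled summit. These ranks take in the whole optimal list, so this share is not separate from the optimal shares above. In replicate 3 the median was 9233.5, against 6374.5 over all genes. In replicate 2 it was 12059, against 6592 over all genes. In each list the summits at tRNA genes thus ranked lower than those of all genes. A gene with several starts was given its best rank over all of them, while tRNA genes have 1 start. Ranks at the outermost start alone were not counted.

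The 15 tRNA genes with an optimal summit were served by 11 best-ranked summits, 0.444% of the 2478, in 11 gene clusters and 10 isotypes. A twelfth optimal summit lay 427 bp from tRNA:Tyr-GTA-1-8, which also has a stronger one. Of the 11, 6 had a signal above the median of the optimal list. None of the 11 fell inside a tRNA gene. All 15 genes held the looser B box, and 4 of them the stricter one.

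The strongest region stood beside tRNA:Ala-TGC-2-1 (FBgn0011879, 2R:17392215-17392286, plus strand), an alanine tRNA gene outside any protein-coding gene. Its peak at 2R:17392402-17392680 ranked 106 among the optimal regions with an authors' signal of 468.4, and its summit lay 292 bp downstream of the tRNA start. It ranked 39 in replicate 3 (signal 324.4) and 320 in replicate 2 (signal 161.7). Signal scales are not stated, so the ranks rather than the signals compare the replicates. The nearest protein-coding start, of CG10939, lay 2086 bp from this summit. Its neighbour tRNA:Ala-TGC-1-1, at 662 bp from the same summit, fell outside the window.

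The next region stood beside tRNA:Tyr-GTA-1-8 (FBgn0012024, 3R:8669081-8669174, minus strand), a tyrosine tRNA gene whose sequence is interrupted by an intron. It lies within the bodies of CG8036 and p, the pink gene of eye pigment granules. The peak at 3R:8669179-8669622 ranked 169 with a signal of 401.8, and ranked 77 in replicate 3 (signal 270.5) and 644 in replicate 2 (signal 124.2). The summit lay 227 bp upstream of the tRNA start and 217 bp from the start of CG8036, so the window does not separate the genes. Of the 10 Tyr genes in all, 1 had a pooled summit.

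tRNA:Arg-TCG-2-3 (FBgn0011966, 3R:8861880-8861952, plus strand) had the summit closest to a tRNA start of the 11, 80 bp upstream. The gene lies inside pyd, which codes for a scaffold protein of cell junctions, on the opposite strand, and the nearest pyd start was 1733 bp from the summit. The peak at 3R:8861578-8862021 ranked 499 with a signal of 269.3. It ranked 321 in replicate 3 (signal 163.9) and 940 in replicate 2 (signal 105.4). Among the 10 genes with this anticodon, 9 had a pooled summit and 1 an optimal summit.

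A histidine, a tryptophan and a phenylalanine tRNA gene shared their regions with protein-coding starts that were closer to the summit. The peak at 2R:12335016-12335459 beside tRNA:His-GTG-1-3 (FBgn0050251) ranked 625 (signal 247.2), with rank 420 in replicate 3 and 1017 in replicate 2. Its summit lay 172 bp upstream of the tRNA start and 78 bp from the start of CG8490. The peak at X:6744008-6744451 beside tRNA:Phe-GAA-1-2 (FBgn0052740) ranked 746 (signal 231.3), with rank 796 in replicate 3 and 873 in replicate 2. Here the summit was 313 bp downstream of the tRNA start and 8 bp from the start of RpL17, a protein of the large ribosomal subunit. The start of the noncoding gene lncRNA:CR44895 lay in the same window. The peak at 2R:18639063-18639506 beside tRNA:Trp-CCA-2-2 (FBgn0050227) ranked 1791 (signal 156.8), with rank 1227 in replicate 3 and 2654 in replicate 2. Its summit lay 272 bp upstream of the tRNA start and 15 bp from the start of CG30122. With Tyr-GTA-1-8, these were the 4 of 11 summits nearer to a coding start than to a tRNA start.

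tRNA:Glu-TTC-1-5 (FBgn0011849, 2R:19727460-19727531, minus strand) stood far from any coding start, with CG8517 at 13211 bp from the summit. The peak at 2R:19727065-19727508 ranked 1235 (signal 184.4), with rank 856 in replicate 3 (signal 113.1) and 1498 in replicate 2 (signal 87.04). The start of a snoRNA gene also lay within 500 bp of the tRNA start. This gene belongs to a cluster of 5 glutamate and 2 initiator methionine tRNA genes.

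The aspartate pair had its summit on the side of tRNA:Asp-GTC-1-5, 102 bp downstream of its start, and 240 bp upstream of the start of tRNA:Asp-GTC-1-4 on the other strand. The peak at 2L:8541641-8542084 ranked 1627 (signal 163), with rank 1182 in replicate 3 (signal 98.76) and 2969 in replicate 2 (signal 61.16). A start of Sema1a, a cell-surface cue for growing axons, lay 284 bp from the summit. The 12 other Asp genes had no optimal summit, and 6 of them had a pooled one.

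tRNA:Gln-TTG-2-1 and tRNA:Leu-TAA-2-1 were the members with an optimal summit that ranked nearer the top in replicate 2. The peak beside the Gln gene (FBgn0052493), at X:3427499-3427942, ranked 1941 (signal 150.3), with rank 2715 in replicate 3 (signal 68.93) and 1780 in replicate 2 (signal 80.38). It lay 198 bp upstream of the tRNA start, and the nearest coding start, of CG14269, was 8086 bp from the summit. The peak beside the Leu gene (FBgn0053536), at 3R:24112474-24112917, ranked 2166 (signal 143.1), with rank 2116 in replicate 3 (signal 76.86) and 1429 in replicate 2 (signal 88.47). The Leu gene starts 322 bp from a start of Root, which codes for a component of the ciliary rootlet, and the summit lay 268 bp upstream of the tRNA start and 307 bp from a start of CG13605. The lowest signal in the optimal list was 132.9 and the median was 183.7.

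The glutamate tRNA genes with anticodon CTC held the most members served by a single optimal summit. tRNA:Glu-CTC-3-4 (FBgn0011851) starts a run of 4 identical genes on the plus strand of 3L, with each start 237 bp after the last, and 2 further copies follow after a gap of 3034 bp and 341 bp from each other. The 237 bp units that begin at genes 3-4, 3-5 and 3-6 were identical at 99.2% to 100% of positions, and the unit that begins at gene 3-7 matched them at 50.6%. All 6 lie inside Ptp61F, a tyrosine phosphatase gene, on the opposite strand. The summit of the optimal peak (3L:1397865-1398308, rank 1760, signal 157.9) stood 155 bp downstream of the start of gene 3-5 and 82 bp upstream of that of gene 3-6, in the spacer between them. It lay 499 bp from the start of CG32320. The region ranked 851 in replicate 3 (signal 113.3) and 5352 in replicate 2 (signal 45.05). A second pooled summit, 58 bp after the start of gene 3-4, ranked 5655 in the pooled list, with its counterparts at rank 4864 in replicate 3 and 14816 in replicate 2. At the far pair the order was the other way, since the summit beside gene 3-9 ranked 9212 in replicate 3 and 5731 in replicate 2. All 6 genes had a summit in the pooled list and in each replicate.

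**Figure D2:**
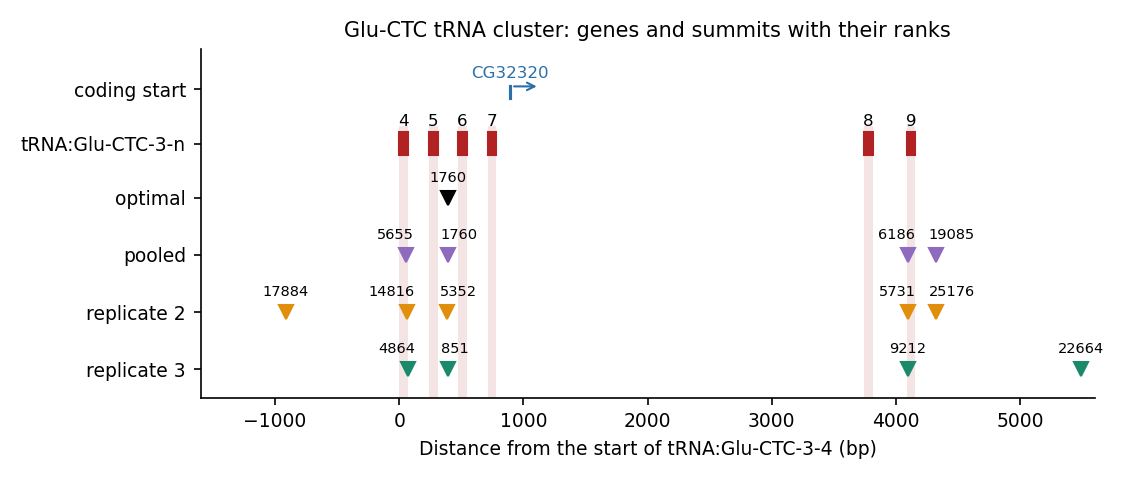
The tRNA:Glu-CTC-3 cluster, with distance from the start of gene 3-4 in bp on the horizontal axis, tRNA genes 3-4 to 3-9 as red blocks, the start of CG32320 as an arrow, and the summits of each list as triangles with their ranks. The optimal summit (rank 1760) stood between genes 3-5 and 3-6, and 3 summits of each replicate stood at nearly the same points with unequal ranks. The other summits of the replicates (at −912 and 4325 bp in replicate 2, and at 5494 bp in replicate 3) had no counterpart in the other replicate.

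The sequences of 201 bp centred on the summits at the Arg-TCG and Glu-CTC genes show the middle part of these peaks. They give the plus strand, with the bases of tRNA genes in capitals. The first spans 3R:8861700-8861900 and ends with the first 21 bases of tRNA:Arg-TCG-2-3. The second spans 3L:1397987-1398187, begins with the end of tRNA:Glu-CTC-3-5 and closes with the start of tRNA:Glu-CTC-3-6, 36 tRNA bases in all. The peaks are wider than these windows and cover tRNA:Arg-TCG-2-3, tRNA:Glu-CTC-3-5 and tRNA:Glu-CTC-3-6 in full.
Arg-TCG-2-3 window: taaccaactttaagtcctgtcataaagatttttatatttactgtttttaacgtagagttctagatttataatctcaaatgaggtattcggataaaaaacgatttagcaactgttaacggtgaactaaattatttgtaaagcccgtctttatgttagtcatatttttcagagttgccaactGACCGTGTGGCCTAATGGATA
Glu-CTC-3-6 window: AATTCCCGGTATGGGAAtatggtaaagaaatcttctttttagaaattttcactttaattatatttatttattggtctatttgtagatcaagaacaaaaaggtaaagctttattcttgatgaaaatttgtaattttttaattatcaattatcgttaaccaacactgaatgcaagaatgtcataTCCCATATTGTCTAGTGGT
The summit, the middle base of each window, lay outside the tRNA genes in both. Since the second window lies in a repeated unit, the position of reads within it depends on how repeated matches were placed.

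Of the 11 optimal summits, 9 ranked nearer the top in replicate 3 and 2 in replicate 2. Over the 2474 optimal regions matched in both replicates, 47.9% ranked nearer the top in replicate 3. Of the 56 tRNA genes with a summit in both replicates and no optimal one, 43 (76.8%) had their best summit nearer the top in replicate 3. Of all 71 tRNA genes with a summit in both replicates, 56 (78.9%) had their best summit nearer the top in replicate 3, against 51.8% of all genes in both lists. Their median rank was 5812 in replicate 3 and 11703 in replicate 2, where all genes in both lists had 4575.5 and 4779. The replicates' median ranks were thus close over all genes and far apart over tRNA genes. Read depth, mapped fractions and duplicate rates of the replicates are unknown here, and their part in this was not tested.

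**Figure D3:**
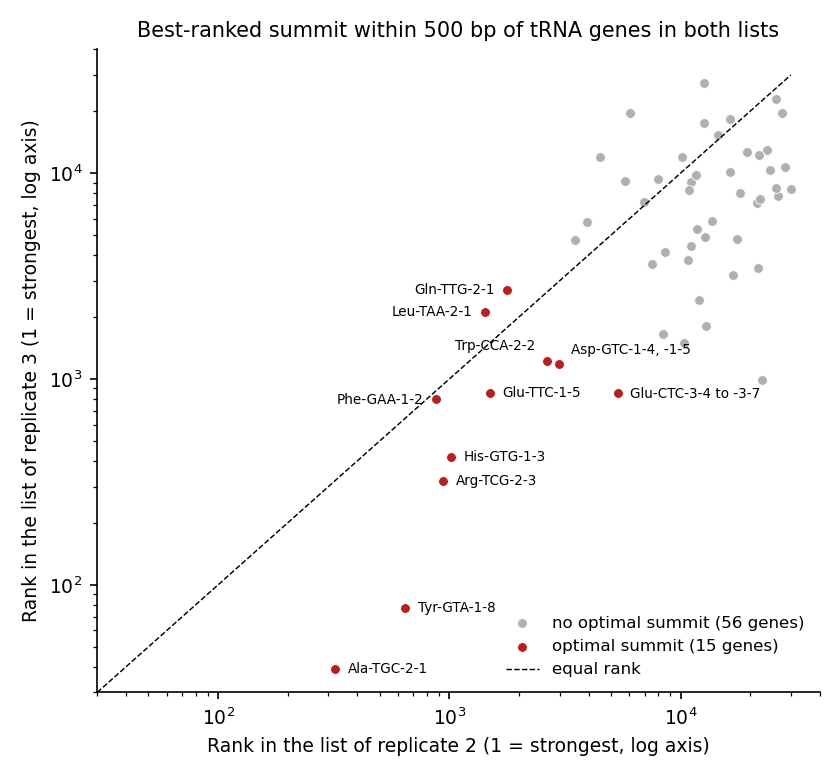
Rank of the best summit within 500 bp of each tRNA gene in the list of replicate 3 (vertical, log axis) and of replicate 2 (horizontal, log axis), for the 71 genes found in both, with the 15 genes with an optimal summit in red, named once per summit, and equal ranks on the dashed line. Points below the line rank nearer the top in replicate 3, as 56 of the 71 genes did.

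In counts of genes, 71 had a summit in both replicates, 99 in replicate 3 alone, 16 in replicate 2 alone and 104 in neither. Replicate 3 thus held 1.95 times as many tRNA genes as replicate 2, against 1.11 times over all genes and over protein-coding genes. Of the 87 genes in replicate 2, 81.6% were also in replicate 3, near the 81.0% over all genes. Of the 170 in replicate 3, 41.8% were also in replicate 2, against 73.0% over all genes. Among the strongest 2478 regions, 7 tRNA genes were in both, 13 in replicate 3 alone and 1 in replicate 2 alone. Over all genes the counts were 1318, 587 and 567. Of the genes in replicate 3 at this cut, 35.0% of tRNA genes and 69.2% of all genes were also in replicate 2. Of those in replicate 2, 87.5% and 69.9% were also in replicate 3. Across all lists 98 members had no summit at all, and 70 were in the pooled list and both replicates. These counts were not made over all genes.

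Replicate 3 listed more members than replicate 2 in each class by copy number, coding start, group size and arm. It was 72 genes in replicate 2 and 142 in replicate 3 for the 238 with identical copies (1.97 times), and 15 and 28 for the 52 of unique sequence (1.87 times). Genes without a coding start in the window numbered 73 in replicate 2 and 150 in replicate 3 (2.05 times), and those with a coding start 14 and 20 (1.43 times). The smallest ratio by cluster size was that of tRNA genes standing alone, 23 in replicate 2 and 30 in replicate 3 (1.3 times). Genes in clusters of 2 or 3 numbered 34 and 81 (2.38 times), and those in clusters of 4 or more 30 and 59 (1.97 times). By arm the counts in replicate 2 and replicate 3 were 10 and 20 on 2L, 28 and 70 on 2R, 22 and 31 on 3L, 19 and 38 on 3R, and 8 and 11 on X. No test was made between these classes, and genes of a cluster share summits.

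Members beside a protein-coding start had optimal summits more often in these counts. Of the 32 with a coding start within 500 bp, 8 had an optimal summit (25.0%, 11.5 to 43.4). Of the 258 without, 7 did (2.71%, 1.10 to 5.51), where the share of all genes was 10.6%. The intervals of the 2 classes did not overlap, but they count genes as separate and are too narrow. The Asp summit and the Glu-CTC summit each serve genes of both classes. With a 200 bp window for summits and coding starts alike, 0 of 3 genes with a coding start and 6 of 287 without had an optimal summit. A class of 3 genes is too small to show whether the shares differ at that window. In the pooled list the shares were 65.6% with a coding start (21 genes, 46.8 to 81.4) and 48.8% without (126 genes, 42.6 to 55.1), with overlapping intervals. By distance to the nearest coding start, optimal summits served 8 of 32 genes within 500 bp, 4 of 91 from 501 to 2000 bp, 2 of 108 from 2001 to 10000 bp and 1 of 59 beyond that. The pooled shares in the same bins were 65.6%, 54.9%, 45.4% and 45.8%. The 28 coding genes with a start beside a tRNA gene had an optimal summit in 7 cases (25.0%, 10.7 to 44.9), against 12.6% of all protein-coding genes. A single window holds both starts, so these counts do not assign a summit there to the tRNA gene or to the coding gene. At tRNA:Leu-TAA-2-1 the coding start in the window, of Root, stood on the other side of the tRNA start from the summit.

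Where no coding start was near, replicate 3 listed 58.1% of tRNA genes (150 of 258, 51.9 to 64.2), against 45.8% of all genes. Replicate 2 listed 28.3% (73 of 258, 22.9 to 34.2), against 41.2%. The shares of all genes take in coding genes, so they are not matched in this respect. Among its strongest 2478 regions, replicate 3 reached 10 of the 258 tRNA genes (3.88%), against 10.5% of all genes. Replicate 2 reached 4 (1.55%), against 10.4%. The optimal list served 7 of the 258 (2.71%), against 10.6%, through 6 of the 11 summits. These were the summits at Ala-TGC-2-1, Arg-TCG-2-3, Glu-TTC-1-5 and Gln-TTG-2-1, and those of the Asp and Glu-CTC regions, whose other members do have a coding start in their window.

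The distance of summits from tRNA starts also differed between the replicates. For this comparison protein-coding genes were taken at their outermost start only, unlike the shares above, which counted any start. Shares of coding genes over all their starts were not counted at these distances. In replicate 3, 108 tRNA genes (37.2%) had a summit within 200 bp, against 35.4% of protein-coding genes. In replicate 2, 34 tRNA genes (11.7%) did, against 28.5% of protein-coding genes. Within 100 bp of a start there were 78 pairs of gene and summit in replicate 3 and 16 in replicate 2. Pairs within 500 bp outnumbered those between 500 and 1000 bp by 1.57 times in replicate 3 (229 against 146), while replicate 2 had 102 and 101, a ratio of 1.01. Around protein-coding starts that ratio was 2.28 in replicate 3 and 2.17 in replicate 2. Within 100 bp of coding starts there were 3351 pairs in replicate 3 and 2363 in replicate 2. Summits of replicate 3 were thus crowded at tRNA starts and those of replicate 2 were not, and the lists differed less at coding starts.

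Over the tRNA genes with a summit within 2 kb, the median distance was 230 bp in replicate 3 and 614 bp in replicate 2. The pooled list gave 292 bp, against 183 bp for protein-coding genes at their outermost start. Of the 160 distinct summits within 500 bp of a member in replicate 3, 32 (20.0%) fell inside a tRNA gene, against 9 of 79 (11.4%) in replicate 2 and 24 of 134 (17.9%) in the pooled list. Among 53 tRNA genes more than 2 kb from another tRNA gene and from a coding start, 13 had a summit within 200 bp in replicate 3 and 5 in replicate 2. Within 2 kb the order for these isolated genes was the other way, with a summit at 29 in replicate 3 and at 33 in replicate 2.

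**Figure D4:**
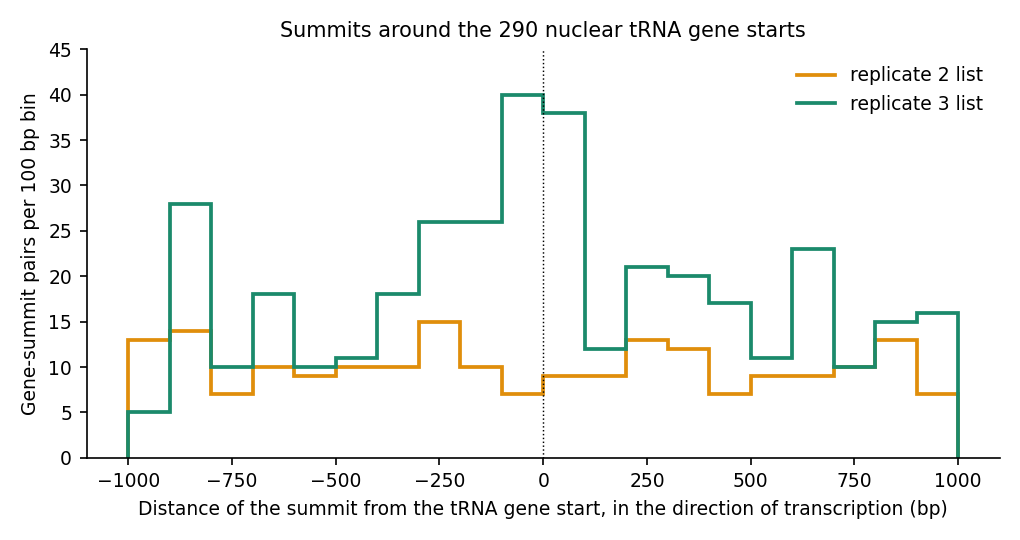
Pairs of tRNA gene and summit per 100 bp bin (vertical axis) by distance of the summit from the gene start in bp, positive in the direction of transcription (horizontal axis), for the lists of replicate 2 and replicate 3. Replicate 3 had 40 pairs in the 100 bp before the start and 38 in the 100 bp after it, where replicate 2 had 7 and 9.

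The 290 genes formed 144 groups when neighbouring starts within 5 kb were joined, 76 of a single gene and 68 of several, of which 49 held only 1 isotype. An optimal summit served 11 groups (7.64%), and a pooled summit 80 (55.6%). Replicate 3 reached 87 groups (60.4%) and replicate 2 reached 59 (41.0%). Pooled summits served 39.5% of the genes standing alone, 51.7% in groups of 2 or 3 and 58.3% in groups of 4 or more. The shares in the same classes were 39.5%, 68.6% and 61.5% in replicate 3, and 30.3%, 28.8% and 31.2% in replicate 2, so the replicates did not share a rise with group size. A gene in a group can be served by a summit at its neighbour, and the part of this in the shares was not tested. Every member had a pooled summit in 23 of the 68 larger groups.

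The largest groups had no optimal summit. The 11 genes at 3R:17617761-17631750 (4 Ala, 3 Pro, 2 Thr and 2 Val) had a summit at 3 genes in replicate 3, at none in replicate 2 and at 2 in the pooled list, with a best pooled rank of 15116. The 11 genes at 2R:6161535-6171759 (4 Lys, 3 Arg, 3 Asn and 1 Ile) had summits at 7 in replicate 3, 2 in replicate 2 and 6 in the pooled list. Its best pooled rank was 12962, so neither of these groups held a region near the top of the list. Of the 3 groups of 7 genes, that at X:14014814-14017284 (5 Arg, 2 Ser) had 3 genes in replicate 3, 2 in replicate 2 and 6 in the pooled list. That at 2R:13430282-13432794 (5 Ile, 2 Leu) had 6, 2 and 7 in the same lists, and that at 2R:19725620-19728958 (5 Glu, 2 iMet), which holds the optimal summit at Glu-TTC-1-5, had 5, 1 and 5. Replicate 3 listed more genes than replicate 2 in each of these 5 groups.

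By isotype, optimal summits fell at Glu (5 of 19 genes), Asp (2 of 14) and at 1 gene each of Ala (17 genes), Arg (26), Gln (12), His (5), Leu (22), Phe (8), Trp (8) and Tyr (10). No gene of Asn (10), Cys (7), Gly (20), Ile (11), Lys (19), Met (6), Pro (17), Ser (20), Thr (17), Val (15), initiator Met (6) or selenocysteine (1) had one. Of the 5 Glu genes, 4 share a summit, so the Glu count stands for 2 regions. In the pooled list, leaving out the lone selenocysteine gene, the shares were highest for Ile (10 of 11), Asn (8 of 10), Ser (14 of 20), Glu (12 of 19), Arg (16 of 26), Leu (13 of 22) and Asp (8 of 14). They were lowest for Tyr (1 of 10), Lys (5 of 19), Val (5 of 15) and Ala (6 of 17). The others had 3 of 7 for Cys, 5 of 12 for Gln, 8 of 20 for Gly, 2 of 5 for His, 3 of 6 for Met, 3 of 8 for Phe, 9 of 17 for Pro, 8 of 17 for Thr, 4 of 8 for Trp, 3 of 6 for initiator Met and 1 of 1 for selenocysteine.

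In replicate 3 more genes had a summit than in replicate 2 for 21 of the 22 isotypes, and Cys had 3 of 7 in each. Gly had 10 of 20 genes in replicate 3 and 2 in replicate 2, with no gene shared. Asn had 9 of 10 and 2, Phe 5 of 8 and 1, and initiator Met 4 of 6 and 0. The gap was small for His, with 4 of 5 and 3, and for Arg, with 15 of 26 and 11. Genes of an isotype that stand in the same group can share a summit, so they are not separate observations. Of the 44 anticodons, 32 had more genes with a summit in replicate 3, 11 had as many in each replicate and 1 had fewer in replicate 3. That 1 was Arg-TCT, with 1 of 3 genes in replicate 3 and 3 of 3 in replicate 2. None of the 6 Lys-TTT genes and neither of the 2 Leu-TAG genes had a summit in any list.

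**Figure D5:**
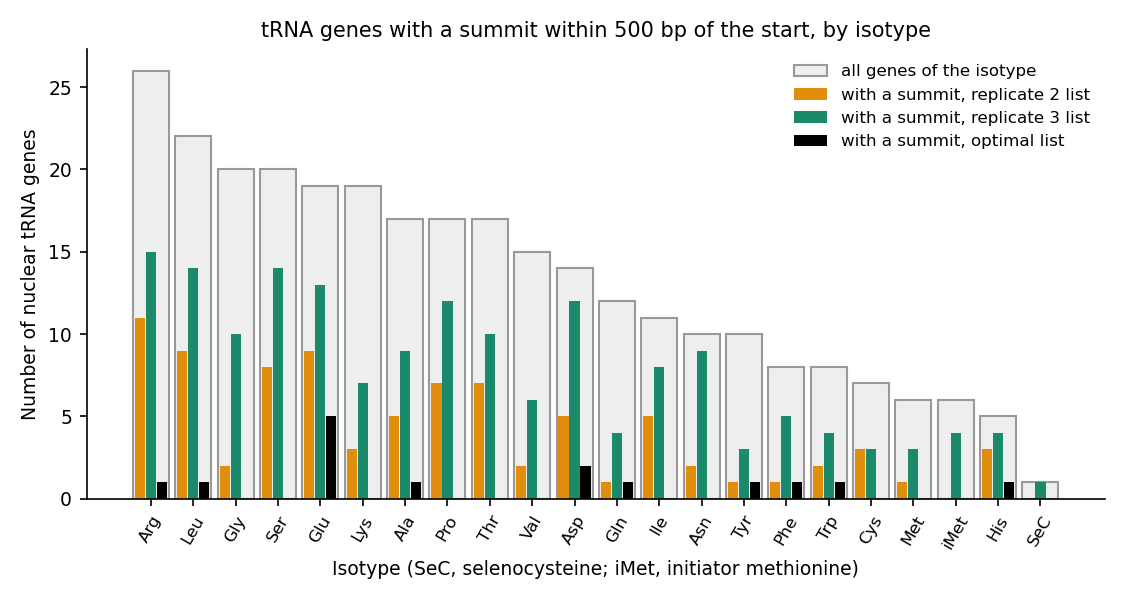
Number of nuclear tRNA genes (vertical axis) by isotype, in grey, with the numbers that had a summit within 500 bp of the start in replicate 2, replicate 3 and the optimal list as coloured bars. The replicate 3 bar is the taller of the replicate bars in 21 of 22 isotypes, and optimal summits appear in 10.

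The 5 members whose pooled region ranked highest without being optimal show how the replicates met at the edge of the list. tRNA:Ile-AAT-1-8 (FBgn0050509), near a start of ATP8A, ranked 2518 in the pooled list with a signal of 132, and ranked 993 in replicate 3 and 22419 in replicate 2. tRNA:Thr-AGT-1-4 (FBgn0051282), near a start of CG31279, ranked 2713 pooled, 1497 in replicate 3 and 10395 in replicate 2. tRNA:Arg-CCT-1-2 and tRNA:Arg-CCT-1-3 shared a region of pooled rank 3031, at 1658 in replicate 3 and 8411 in replicate 2. tRNA:Thr-TGT-2-1 ranked 3267 pooled, 2418 in replicate 3 and 12059 in replicate 2. All 5 were thus among the strongest 2478 regions of replicate 3 and far below in replicate 2. They were picked just below the optimal cut of the pooled list. Other regions at such pooled ranks were not compared, so these genes do not show whether that pattern is particular to tRNA genes. On distance, the gene nearest to an optimal summit without counting was tRNA:Gly-GCC-1-9 at 511 bp, and the farthest that counted was tRNA:Glu-CTC-3-4 at 392 bp.

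Identical copies and the B box gave no clear division of the optimal genes. Optimal summits served 11 of the 238 genes with copies (4.62%, 2.33 to 8.12) and 4 of the 52 of unique sequence (7.69%, 2.14 to 18.5). They served 4 of 160 genes with the stricter B box (2.50%, 0.685 to 6.28) and 11 of 130 without (8.46%, 4.30 to 14.6), while pooled summits served 56.2% with it and 43.8% without. With the looser letters, 19 genes lacked a match, of which 8 had a pooled summit and none an optimal one. By host gene, optimal summits served 8 of 156 genes outside coding genes, 5 of 75 on the strand opposite to a host, 1 of 52 on the same strand and 1 of 7 with hosts on both. The intervals of these classes overlapped.

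The 100 bp on each side of the 11 summits were searched, on either strand, for motifs known from fly promoters. The DRE letters TATCGATA, bound by the factor Dref, were present at 2 of 11, at His-GTG-1-3 and Trp-CCA-2-2, against 5.49% of all optimal summits and 2.01% of the other 27522 pooled summits. The shorter CGATA, which lies inside the DRE and so counts those sites again, was present at 6 of 11, against 32.9% and 25.0% in the same sets. GAGAG, recognised by the GAGA factor, was present at 2 of 11, against 28.1% and 25.3%. The E-box CANNTG was present at 7 of 11, against 61.8% and 64.7%, and Motif 1 at none, against 1.86% and 0.865%. With 11 summits these counts are a description only. Both DRE matches stood at summits closer to a coding start than to the tRNA start.

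Other genes read by RNA polymerase III were set beside the members. None of 96 genes of 5S ribosomal RNA, which stand in a tandem array, had an optimal summit, and 1 had a pooled one. Over all genes the shares were 10.6% and 44.3%. How reads were placed among the repeated genes of the array is not stated, and its part in this was not tested. Of 3 U6 snRNA genes, whose promoters lie upstream of the gene, 2 shared a pooled summit of rank 8879, at rank 6071 in replicate 3 and absent from replicate 2. The 7SK gene snRNA:7SKa, whose RNA restrains an elongation factor, had an optimal summit of rank 1732 (1545 in replicate 3, 1890 in replicate 2), and snRNA:7SKb had none. The 2 genes of 7SL RNA, part of the signal recognition particle, had no summit in any list. Among genes of the polymerase III factors, Bdp1, a subunit of TFIIIB, had one of the strongest optimal regions, at rank 29 (35 in replicate 3, 16 in replicate 2). Brf, another TFIIIB subunit, stood at rank 739 (2234 in replicate 3, 371 in replicate 2). Tbp, the TATA-binding protein, had a pooled summit of rank 8043 and l(2)37Cd, placed here in the TFIIIC group by choice, one of rank 16771. Trf, which takes the place of Tbp in fly TFIIIB, had none. At Bdp1, Brf and Tbp (10535 in replicate 3, 10237 in replicate 2) the ranks were nearer the top in replicate 2, unlike at most tRNA genes. The summit at l(2)37Cd was in replicate 2 (rank 5575) and absent from replicate 3. Of protein-coding genes in both lists, 51.9% ranked nearer the top in replicate 3, so ranks nearer the top in replicate 2 were common among them.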

How the data were processed

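Whole-embryo ADD1-GFP ChIP-seq of 2 replicates was analysed from 4 deposited region lists in dm6 coordinates. Per the deposited text, the pooled and replicate lists hold peaks and background prepared for IDR, and each replicate list also derives from a further file of unstated role. No source used here names the aligner, caller or IDR cutoff. Region signal is as the authors deposited it, on an unstated scale, and served only for ranking inside its own list. The authors also deposited a −log10 q-value per region, which reached a ceiling at many regions and was left out. Summits were taken as the region start plus the deposited summit offset, and most regions have a fixed width (444 bp for 29609 of the 30000 pooled regions), so summits are mostly their midpoints. All 2478 optimal regions kept their rank in the pooled list.

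Start sites came from Ensembl release 115, sequences and a check of coordinates from RefSeq. A gene was counted with a summit within 500 bp of any start (tRNA genes have 1), tRNA starts within 5000 bp were joined into groups, and each replicate's strongest 2478 regions were also used. Where summit distances around all coding genes were counted, only the outermost start was used. Shares have 95% exact (Clopper-Pearson) intervals, which cover the counting of genes only, since read depth is unknown. No test was made: there are 2 replicates of 1 group and no control. Scripts (Python 3.11.15, pandas 2.3.3, SciPy 1.17.1) were tested on simulated data. Members, lists and motifs were chosen with earlier results of these data known. Named were all tRNA genes with an optimal summit, the largest groups, the 5 next-ranked genes, every isotype, and coding genes beside named tRNA genes; anticodons Arg-TCT, Lys-TTT and Leu-TAG were chosen after their values were seen. Sequences of some members are not printed.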

Additional observations from a re-analysis of the deposited data

How the results depend on the processing

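Of 44 alternative values, 24 stayed within 1.5 times of the count reported and 20 did not. A 200 bp window, for summits and coding starts alike, left 6 tRNA genes with an optimal summit, 0 of them with a coding start, in 5 clusters and 5 isotypes, and 74 genes with a pooled summit. A 1000 bp window gave 22 genes, 14 of them with a coding start. The optimal regions above the list's median signal served 6 genes (3 with and 3 without a coding start), 6 clusters and 6 isotypes. Optimal regions that were among the strongest of both replicates, 1709 in number, served 7 genes (4 with and 3 without a coding start) and 7 clusters. Counting overlap of the whole region with the window gave 17 genes, and joining tRNA starts at 2 kb or 10 kb left 11 clusters served.

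Using the strongest regions of 1 replicate in place of the optimal list, without replicate 3 or without replicate 2, the tRNA genes served ranged from 8 to 20, those with a coding start from 4 to 10, those without from 4 to 10, clusters from 8 to 15 and isotypes from 8 to 12. In place of the pooled list, 87 to 170 genes had a summit, and the median distance ranged from 230 to 614 bp. In each range the lower counts and the longer distance were those without replicate 3. The cause was not tested. No paired analysis was possible because the 2 replicates belong to 1 group. Unknown read depth, unstated handling of reads from identical copies and the lack of a control sample here limit what the lists show for tRNA genes.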
